A study of Homo sapiens with 15 samples.

Results

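The DNA mismatch repair genes described here are MSH6, MSH3, PMS2, MLH3, PMS1 and EXO1, matched by gene symbol in the deposited expression table. All 6 were among its 16604 genes, of which 15585 had a symbol. The data were 15 samples of OVCAR4, an established human ovarian cancer line, with 3 for each of 5 lines. Ovcar4Parental was sensitive to carboplatin and cisplatin, Ov4Cis was resistant to cisplatin and Ov4Carbo was resistant to carboplatin. Ov4Carbo4 and Ov4Carbo7 were each grown out from a single Ov4Carbo cell, so each is 1 clone and both share their selection with Ov4Carbo. The resistant lines had been kept in rising drug until their IC50, a measure of the dose needed to inhibit the cells, was 2 to 10 times higher. No genotype or engineered allele was given for any line, and all 5 shared the same medium, DMEM with 10% serum. RNA selected by its poly(A) tail was sequenced, and each value is a log2 RPKM, the log2 of reads scaled to gene length in kilobases and to the size of the library. Whether the 3 samples of a line were separate cultures was not given, so p-values measure the spread between these samples, which may be technical.

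Mismatch repair corrects bases wrongly paired during DNA replication. MutS proteins find the mismatch, MutL proteins join them and nick the new strand, EXO1 digests that strand past the error, and a polymerase and a ligase fill the gap. In ovarian cancer the pathway is known because cells that lose it can tolerate the DNA adducts of cisplatin and carboplatin, and mismatch repair proteins take part in the signal from those adducts to cell death.

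The promoters of 5 members are shown, the 4 that hold 1 of the spellings below and that of MLH3, which differed most clearly between lines and holds none. Each run of 150 bases is read 5′ to 3′ on the gene's strand, with 130 bases before a RefSeq start site and 20 after it (GRCh38.p14). More than 1 start window was listed for MSH6 (4), PMS2 (2) and EXO1 (2), and 1 of each is shown. Capitals mark TTTGGCGC, TTTCGCGC, TTTCCCGC or TTTGCCGC on either strand, spellings of the site of E2F factors, which switch on replication genes. These letters and this window were chosen after the promoters had been read, so the number of members that hold them supports nothing.
MSH6, chr2:47783015-47783164, plus strand: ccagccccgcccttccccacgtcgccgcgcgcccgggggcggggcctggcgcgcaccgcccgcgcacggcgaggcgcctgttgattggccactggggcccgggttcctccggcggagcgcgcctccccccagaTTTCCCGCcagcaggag
MSH3, chr5:80654522-80654671, plus strand: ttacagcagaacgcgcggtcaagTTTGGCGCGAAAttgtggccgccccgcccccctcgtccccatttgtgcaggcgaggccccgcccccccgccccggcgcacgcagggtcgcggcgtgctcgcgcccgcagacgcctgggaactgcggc
PMS2, chr7:6009087-6009236, minus strand: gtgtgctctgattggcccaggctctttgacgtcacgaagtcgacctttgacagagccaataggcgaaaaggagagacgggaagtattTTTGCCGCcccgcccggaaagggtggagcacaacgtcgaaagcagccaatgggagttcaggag
EXO1, chr1:241848074-241848223, plus strand: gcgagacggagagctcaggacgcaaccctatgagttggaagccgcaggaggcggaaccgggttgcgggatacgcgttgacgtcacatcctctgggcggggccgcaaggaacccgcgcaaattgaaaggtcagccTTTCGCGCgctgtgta
MLH3, chr14:75051448-75051597, minus strand: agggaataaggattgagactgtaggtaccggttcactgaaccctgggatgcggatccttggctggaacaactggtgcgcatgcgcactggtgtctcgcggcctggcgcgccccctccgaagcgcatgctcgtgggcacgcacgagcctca
MSH6 held TTTCCCGC from base 4 after the start and EXO1 held TTTCGCGC from base 5 after the start. MSH3 held TTTGGCGC from 107 bases before the start, overlapping TTTCGCGC read on the opposite strand. PMS2 held TTTGCCGC from 43 bases before its start, and neither MLH3 nor PMS1 held any of these spellings. Among 35116 RefSeq promoter windows, each from 250 bases before to 50 after a start, 3.31% held at least 1 of them. The letters CCAAT, searched the same way, were in MSH6, PMS2 and PMS1 and in 34.6% of all windows. A match is a run of letters and no evidence of binding, and no factor's binding was measured.

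Sequencing depth is unknown, because the table holds no counts. The 15 samples had nearly equal medians (2.77 log2 RPKM) and 13643 to 13712 genes above 0, and no pair was identical. The numbers in the sample titles fall into 2 series: Ov4Carbo4, Ov4Carbo7 and Ov4Carbo replicate 1 are in the lower, and the other samples are in the higher. The labels do not say what the series stand for, and since Ov4Carbo alone is in both, line and series can be separated only through its 3 samples. Of 10 ovarian serous epithelial markers, 9 were measured, and 6 to 8 of them had a mean of at least 1 log2 RPKM in each line. PAX8, the lineage transcription factor, had a mean of 5.85 to 6.74 log2 RPKM, WT1 was below 0 in every line, and 0 of 3 leukocyte markers were among the genes measured. Other epithelial markers differed between lines, and not all in the same direction. SOX17 and MECOM had geometric means of 217 and 167 RPKM in Ov4Cis, above 120 and 93.9 in Ovcar4Parental. KRT8 and KRT18 had 22.7 and 80.1 in Ov4Cis, below 136 and 184 in Ovcar4Parental. KRT7, a keratin, had a geometric mean of 311 RPKM in Ovcar4Parental and 0.675 in Ov4Cis, EPCAM, an adhesion protein, had 63.2 in Ovcar4Parental, 2.25 in Ov4Cis and 8.07 in Ov4Carbo7, and MUC16, a surface mucin, had 24.2, 0.302 and 0.862 in those lines. Of 6 fibroblast markers 4 were measured, with a summed level of 4.04 to 14.6 RPKM, and of 3 endothelial markers 2 were measured, summing to 4.20 to 6.96 RPKM in Ovcar4Parental and Ov4Carbo and to 8.79 to 40.4 RPKM in the other lines. Whether these levels bear on any member was not tested.

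Across the lines, MSH6 was the most abundant member, with a geometric mean of 45.0 RPKM, and PMS2 the least, at 3.05 RPKM. EXO1 stood at 11.4, MLH3 at 7.30, PMS1 at 6.29 and MSH3 at 6.27 RPKM. A limma fit over all 15 samples and all genes tested each member among the lines by a moderated F-test, with Benjamini-Hochberg adjustment over all 16604 genes. By it 4 of 6 members differed at an adjusted p under 0.05, beside 76.9% of all genes. These were MLH3 (adjusted p = 0.00019), PMS1 (0.00636), MSH6 (0.0146) and EXO1 (0.0161), whereas PMS2 (0.229) and MSH3 (0.906) did not pass.

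Against the parental line, MLH3, MSH6 and PMS1 were each higher in at least 1 resistant line and MLH3 and EXO1 were lower in 1. In all, 6 of 24 member comparisons passed, 4 higher and 2 lower, beside 38.1% over all genes. The values of the compared lines did not overlap in 7 of 24, beside 51.6% over all genes. No comparison both passed and reached a log2 difference of 1, a 2-fold change, beside 15.2% of all genes; 6 of 24 had an unadjusted p under 0.05. The members passing numbered 1 in Ov4Cis (36.2% of all genes), 2 in Ov4Carbo (34.0%), 2 in Ov4Carbo4 (39.7%) and 1 in Ov4Carbo7 (42.6%). The 4 comparisons share the same 3 parental samples. Simulated data for Ov4Carbo7 against the parental line held 100 genes changed by 0.5 log2 and 100 changed by 1, among 16604. The test found 17 and 79 of them. In the real comparison 42.6% of all genes passed, so the adjustment was less strict there. The simulated shares therefore do not say how many member differences of these sizes were missed.

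**Figure D1:**
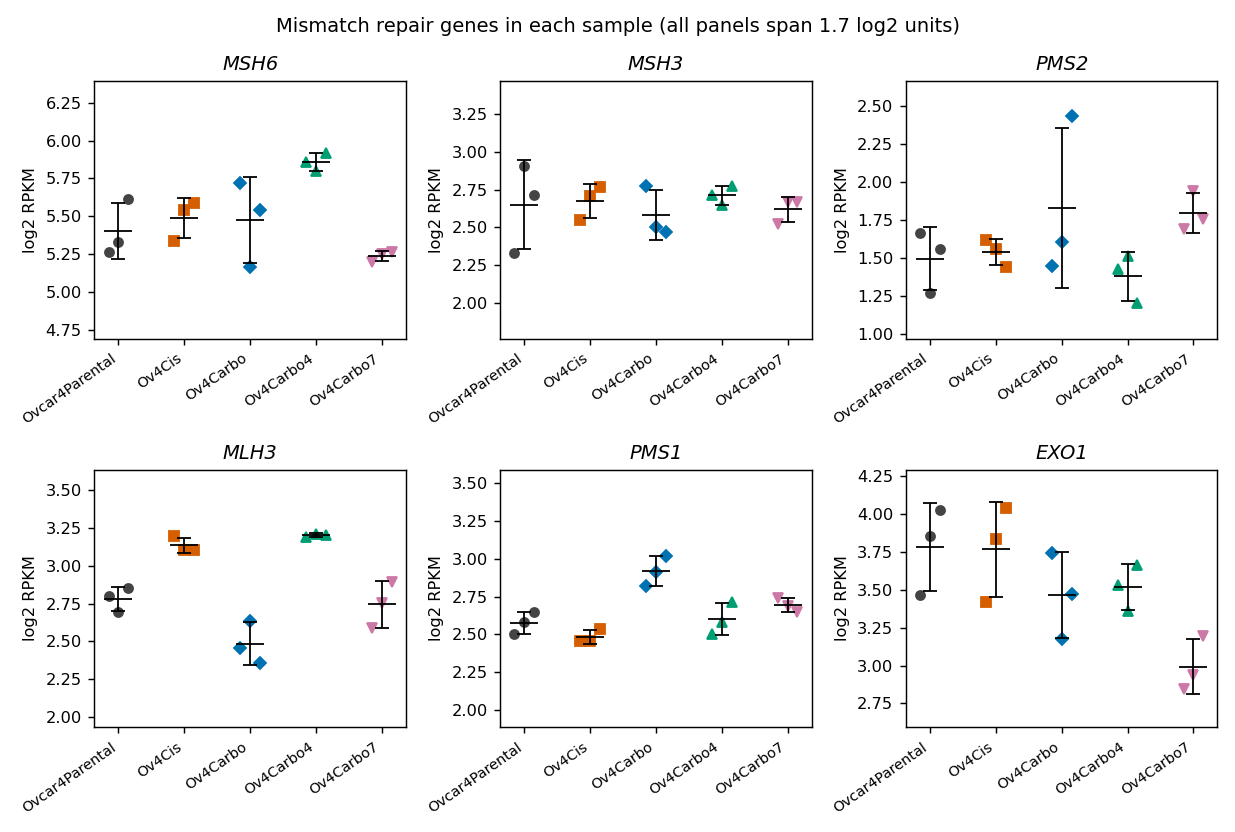
Level of each member in every sample, in log2 RPKM, by line, with the 3 replicates as points and mean ± SD (n = 3) in black. MLH3 is high in Ov4Cis and Ov4Carbo4 and low in Ov4Carbo, EXO1 is lowest in Ov4Carbo7, and MSH3 has line means within 0.13 log2 of each other.

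**Figure D2:**
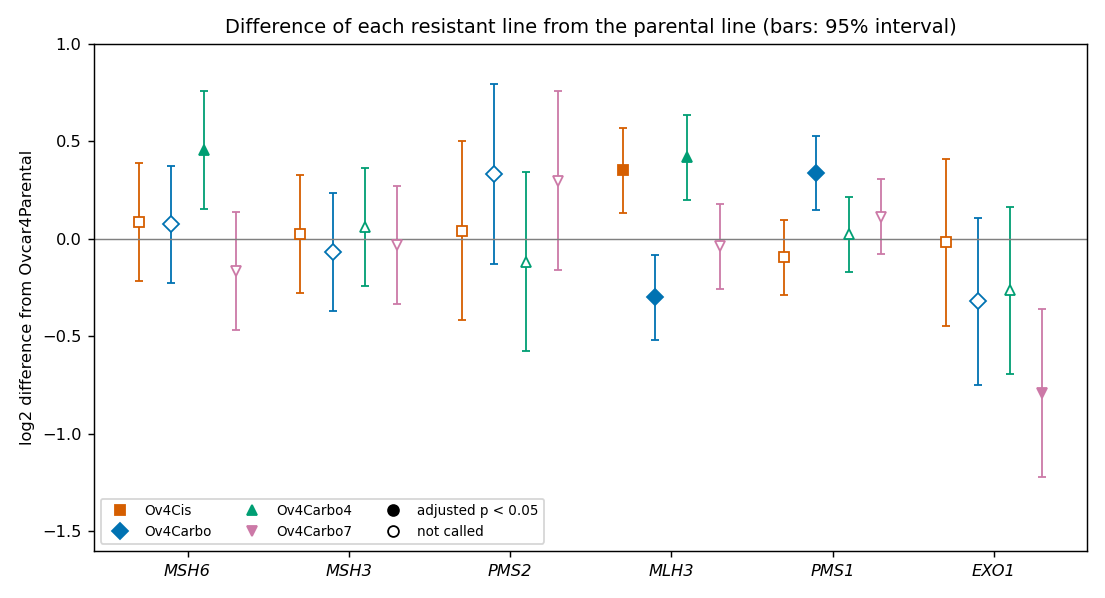
Log2 difference of each member from Ovcar4Parental in the 4 resistant lines, with 95% intervals from limma; filled points have an adjusted p under 0.05. There are 6 filled points of 24, and the farthest from 0 is EXO1 in Ov4Carbo7, at -0.79.

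MSH6 and MSH3 each pair with a shared MutS subunit, MSH6 for single base mismatches and short loops and MSH3 for longer loops. MSH6 was at 5.26, 5.33 and 5.61 log2 RPKM in Ovcar4Parental, 5.34, 5.54 and 5.59 in Ov4Cis, and 5.72, 5.17 and 5.54 in Ov4Carbo. It was at 5.86, 5.80 and 5.92 in Ov4Carbo4 and at 5.20, 5.25 and 5.27 in Ov4Carbo7. The Ov4Carbo4 values lay above those of every other line, and the Ov4Carbo7 values lay below those of Ov4Cis and Ov4Carbo4 but overlapped those of the other lines. MSH6 was 1.37-fold higher in Ov4Carbo4 than in Ovcar4Parental (log2 difference 0.46 ± 0.14 SE, n = 3 each, adjusted p = 0.0197). With the title series as a term in the fit that difference was 0.09 (adjusted p = 0.797), so it cannot be told apart from the series, and without Ovcar4Parental replicate 1 the adjusted p was 0.0728, without its replicate 2 0.0657 and without Ov4Carbo4 replicate 3 0.0651.

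In order of its mean, MSH6 was highest in Ov4Carbo4, then Ov4Cis, Ov4Carbo, Ovcar4Parental and Ov4Carbo7, and among these neighbours only Ov4Carbo4 and Ov4Cis differed (log2 difference 0.37, adjusted p = 0.046). That difference was 0.00 with the series term (adjusted p = 0.995), its adjusted p was 0.0507 with the replicate number as a block, and it rose above 0.05 in 11 of the 15 fits that each left out a sample (up to 0.154, without Ov4Cis replicate 1). The MSH6 call of Ov4Carbo4 over Ov4Carbo (0.38, adjusted p = 0.042) was lost in 11 of those 15 fits too (up to 0.156, without Ov4Carbo replicate 2). It was also lost with the series term (0.14 log2, adjusted p = 0.598) and when only those lines were fitted (0.141). The clones from Ov4Carbo stood at opposite ends: MSH6 was 1.54-fold lower in Ov4Carbo7 than in Ov4Carbo4 (log2 difference -0.62, 95% interval -0.92 to -0.32, adjusted p = 0.00242), and both lines are in the same series.

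MSH3 had nearly the same level in every line. It was at 2.33, 2.90 and 2.72 log2 RPKM in Ovcar4Parental and 2.55, 2.70 and 2.77 in Ov4Cis. In Ov4Carbo it was at 2.77, 2.50 and 2.47, in Ov4Carbo4 at 2.71, 2.65 and 2.77 and in Ov4Carbo7 at 2.52, 2.67 and 2.66. Every pair of lines overlapped, and the parental replicates alone spanned more than all 5 line means. The line means ranged over 0.13 log2, less than the within-line SD of 0.17, and of 12037 genes with a mean of at least 1 log2 RPKM 0.324% had a smaller range (median range 0.73). None of its 10 pairwise comparisons passed in limma, and 0 had an unadjusted p under 0.05. The 95% intervals against the parental line ran from -0.37 to 0.36 log2 over the 4 lines, so smaller differences were not detectable at this precision.

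In level per length, MSH6 stood above MSH3 by 2.75 ± 0.28 log2 in Ovcar4Parental (SD, n = 3), 3.15 ± 0.00 in Ov4Carbo4, 2.89 ± 0.21 in Ov4Carbo, 2.82 ± 0.03 in Ov4Cis and 2.62 ± 0.05 in Ov4Carbo7, a ratio of 6.14 to 8.86.

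PMS2, MLH3 and PMS1 each pair with a shared MutL subunit. PMS2 carries the endonuclease that nicks the new strand in the main pathway, MLH3 carries one that is best known from meiosis, and PMS1 has no known nuclease activity. PMS2 was at 1.66, 1.27 and 1.56 log2 RPKM in Ovcar4Parental, 1.62, 1.56 and 1.44 in Ov4Cis, and 1.45, 1.61 and 2.43 in Ov4Carbo. It was at 1.43, 1.51 and 1.20 in Ov4Carbo4 and at 1.69, 1.94 and 1.75 in Ov4Carbo7. Ov4Carbo replicate 3 stood alone at 2.43, and the Ov4Carbo7 values lay just above those of Ovcar4Parental, Ov4Cis and Ov4Carbo4.

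None of the 10 PMS2 comparisons passed in limma, and 0 had an unadjusted p under 0.05. From highest to lowest mean the order was Ov4Carbo, Ov4Carbo7, Ov4Cis, Ovcar4Parental and Ov4Carbo4, and no neighbours differed. PMS2 in Ov4Carbo7 minus Ov4Carbo4 was 0.42 log2 (adjusted p = 0.119), and the adjusted p was 0.0158 without Ov4Carbo replicate 3 and 0.0224 when only those lines were fitted. PMS2 in Ov4Carbo4 minus Ov4Carbo was -0.45 (adjusted p = 0.104), and it was -0.64 (0.0269) without Ov4Carbo replicate 1. PMS2 has near-identical copies, so its reads are uncertain. Of these PMS2CL, PMS2P1 and PMS2P3, looked up after the PMS2 values were seen, were measured, with means of -0.26, 1.72 and -0.91 log2 RPKM beside 1.61 for PMS2. Each differed among the lines by the moderated F-test (adjusted p = 0.0129, 0.000937 and 0.000638), beside 76.9% of all genes. PMS2P1 ran from 2.14 in Ov4Cis to 1.17 in Ov4Carbo7, and its Pearson's r with PMS2 was 0.00. Whether reads of these copies bear on the PMS2 values was not tested.

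MLH3 changed most often among the members, with 7 of 10 line pairs called. Over all genes, 34.0% (Ov4Carbo against the parental line) to 51.1% (Ov4Carbo7 against Ov4Carbo4) passed in a single pair. The MLH3 line means ranged over 0.72 log2, and 48.9% of the 12037 genes with a mean of at least 1 log2 RPKM had a smaller range. It was at 2.80, 2.70 and 2.85 log2 RPKM in Ovcar4Parental, 3.19, 3.11 and 3.10 in Ov4Cis, and 2.46, 2.64 and 2.35 in Ov4Carbo. It was at 3.19, 3.21 and 3.20 in Ov4Carbo4 and 2.59, 2.75 and 2.89 in Ov4Carbo7. Ov4Cis and Ov4Carbo4 lay above the other 3 lines and overlapped each other, and Ov4Carbo lay below Ovcar4Parental but overlapped Ov4Carbo7. Against the parental line MLH3 was 1.28-fold higher in Ov4Cis (log2 difference 0.35, SE 0.10, adjusted p = 0.0149) and 1.34-fold higher in Ov4Carbo4 (0.42, adjusted p = 0.00542). It was 1.23-fold lower in Ov4Carbo (-0.30, adjusted p = 0.0371), and in Ov4Carbo7 the log2 difference was -0.04 (95% interval -0.26 to 0.18). In order of its mean MLH3 ran Ov4Carbo4, Ov4Cis, Ovcar4Parental, Ov4Carbo7 and Ov4Carbo, and among these neighbours Ov4Cis and Ovcar4Parental differed.

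The fall of MLH3 in Ov4Carbo was the least steady of these. Its adjusted p was 0.0624 with the series term, 0.203 when only both lines were fitted and 0.0617 with the replicate number as a block, and leaving out 1 sample ended the call in 10 of 15 cases (up to 0.116, without Ovcar4Parental replicate 3). The rise in Ov4Carbo4 had an adjusted p of 0.0851 with the series term, at a log2 difference of 0.45. The rise in Ov4Cis stayed under 0.05 with each of these settings except without Ovcar4Parental replicate 2 (0.0626) or Ov4Cis replicate 1 (0.051). Ov4Carbo4 and its source line Ov4Carbo differed most, 1.64-fold (log2 difference 0.72, 95% interval 0.50 to 0.93, adjusted p = 0.000163), a call that was kept in all 15 such fits and with the series term (0.74).

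PMS1 differed chiefly in Ov4Carbo. It was at 2.50, 2.58 and 2.65 log2 RPKM in Ovcar4Parental, 2.46, 2.46 and 2.54 in Ov4Cis, and 2.82, 2.91 and 3.02 in Ov4Carbo. It was at 2.51, 2.58 and 2.72 in Ov4Carbo4 and 2.74, 2.69 and 2.65 in Ov4Carbo7. The Ov4Carbo values lay above those of every other line. In order of the mean Ov4Carbo was followed by Ov4Carbo7, Ov4Carbo4, Ovcar4Parental and Ov4Cis, and no neighbours differed (adjusted p of the first pair 0.064). PMS1 was 1.27-fold higher there than in Ovcar4Parental (log2 difference 0.34, SE 0.09, adjusted p = 0.011), and the adjusted p was 0.139 when only these lines were fitted. Against Ov4Cis it was 1.35-fold higher (log2 difference 0.43, adjusted p = 0.00244), and Ov4Carbo4 stood 1.24-fold below Ov4Carbo (-0.32, adjusted p = 0.0127). Those calls had adjusted p-values of 0.0582 and 0.109 when only the lines compared were fitted, and the second was 0.0572 without Ov4Carbo4 replicate 1. The log2 differences of Ov4Cis, Ov4Carbo4 and Ov4Carbo7 from Ovcar4Parental were -0.09, 0.02 and 0.12, with 95% intervals reaching from -0.29 to 0.31.

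MLH3 had its lowest mean in Ov4Carbo, where PMS1 had its highest. The orders were not fully reversed, since Ov4Carbo4 had the highest mean of MLH3 and the middle mean of PMS1. MLH3 minus PMS1 was 0.20 ± 0.09 log2 in Ovcar4Parental (SD, n = 3), 0.65 ± 0.08 in Ov4Cis and 0.60 ± 0.10 in Ov4Carbo4, and it was -0.43 ± 0.20 in Ov4Carbo and 0.05 ± 0.20 in Ov4Carbo7. In Ov4Carbo all 3 samples had more PMS1 than MLH3 per length, and in Ov4Cis, Ov4Carbo4 and Ovcar4Parental none did. Over the 15 samples, which share lines and title series, Pearson's r of MLH3 with PMS1 was -0.76, the farthest from 0 of the 15 member pairs.

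EXO1, the exonuclease that removes the strand carrying the error, was lower in Ov4Carbo7. It was at 3.47, 3.85 and 4.03 log2 RPKM in Ovcar4Parental, 3.42, 3.84 and 4.04 in Ov4Cis, and 3.74, 3.17 and 3.47 in Ov4Carbo. It was at 3.53, 3.36 and 3.67 in Ov4Carbo4 and at 2.84, 2.94 and 3.19 in Ov4Carbo7. The Ov4Carbo7 values lay below those of Ovcar4Parental, Ov4Cis and Ov4Carbo4 and overlapped those of Ov4Carbo, and the other 4 lines overlapped. EXO1 was 1.73-fold lower in Ov4Carbo7 than in Ovcar4Parental (log2 difference -0.79, 95% interval -1.22 to -0.36, adjusted p = 0.00639). It was also 1.71-fold lower than in Ov4Cis (-0.77, adjusted p = 0.00804) and 1.44-fold lower than in Ov4Carbo4 (-0.53, adjusted p = 0.0407).

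With the series term the EXO1 difference from the parental line was larger, at -1.21 log2 (adjusted p = 0.0228), and its call held in all 15 fits that left out a sample. The call against Ov4Carbo4 was lost in 6 of those 15 (adjusted p up to 0.127, without Ov4Carbo4 replicate 3). From highest to lowest mean EXO1 was ordered Ovcar4Parental, Ov4Cis, Ov4Carbo4, Ov4Carbo and Ov4Carbo7, and no neighbours in that order differed. In cultured cells, fewer cells in a phase of the cycle and less RNA per cell cannot be told apart.

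Between resistant lines, 11 of 36 member comparisons passed, 4 higher and 7 lower in the line named first, beside 41.2% over all genes, and lines did not overlap in 16, beside 53.4%. No comparison both passed and reached a log2 difference of 1, beside 15.6% of all genes; 15 of 36 had an unadjusted p under 0.05. Ov4Carbo4 and Ov4Carbo7, both grown from Ov4Carbo, differed in 3 of 6 members, MSH6, MLH3 and EXO1, all lower in Ov4Carbo7 (51.1% of all genes passed, 27.1% lower). Ov4Carbo4 differed from Ov4Carbo in MSH6 and MLH3, which were higher, and PMS1, which was lower (42.2% of all genes passed, 23.1% higher and 19.2% lower). Between Ov4Carbo7 and Ov4Carbo limma called 0 members (36.6% of all genes), and MLH3, PMS1 and EXO1 had an unadjusted p under 0.05. That count rested on single samples: without Ov4Carbo replicate 2 the same test called MSH6 (-0.39, adjusted p = 0.0275), MLH3 (0.34, 0.0237) and EXO1 (-0.61, 0.0429). PMS1 was called without Ov4Carbo replicate 1 (-0.27, 0.0343), and MLH3 without Ov4Carbo7 replicate 1 (0.34, 0.0274). Ov4Carbo differed from Ov4Cis in MLH3 and PMS1 (34.2% of all genes), Ov4Carbo4 from Ov4Cis in MSH6 (44.0%), and Ov4Carbo7 from Ov4Cis in MLH3 and EXO1 (39.2%).

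A list of 22 replication and cell cycle genes was set beside the members, since EXO1 and the MutS genes act at the replication fork. In Ov4Carbo7, 14 of 22 were lower than in the parental line and 1 was higher (20.4% and 22.2% of all genes), with a median log2 difference of -0.41 beside 0.02 for all genes. Against Ov4Carbo4, 16 of 22 were lower in Ov4Carbo7 (27.1% of all genes), with a median of -0.54 beside -0.05. In Ov4Cis 4 were higher and 3 lower (19.8% and 16.4%), in Ov4Carbo 1 and 5 (17.7% and 16.2%), and in Ov4Carbo4 6 and 1 (21.6% and 18.0%). The genes of the list did not move together everywhere. CCNE1, the cyclin that starts S phase, was lower than parental in all 4 resistant lines (log2 differences -1.01, -1.28, -1.10 and -1.38 for Ov4Cis, Ov4Carbo, Ov4Carbo4 and Ov4Carbo7). TOP2A, which untangles replicated DNA, was higher in all 4 (0.69, 0.36, 0.75 and 0.46). MKI67, a marker of cycling cells, was higher in Ov4Carbo4 (0.43), lower in Ov4Carbo (-0.63) and Ov4Carbo7 (-0.52), and at -0.10 in Ov4Cis, while CCNA2, the S phase cyclin, was lower in Ov4Cis, Ov4Carbo and Ov4Carbo7 (-0.57, -0.81 and -0.50) and at -0.27 in Ov4Carbo4.

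The mean of the 22 genes was 4.82 ± 0.20 log2 RPKM in Ovcar4Parental (SD, n = 3), 4.98 ± 0.09 in Ov4Carbo4, 4.86 ± 0.19 in Ov4Cis, 4.64 ± 0.17 in Ov4Carbo and 4.41 ± 0.15 in Ov4Carbo7. EXO1 and this mean were both lowest in Ov4Carbo7, but their orders differed. The mean was highest in Ov4Carbo4, whereas EXO1 was highest in Ovcar4Parental (3.78 log2 RPKM) and at 3.52 in Ov4Carbo4. Between replicates of a line, EXO1 followed the mean of the list. Each sample was set against its own line's mean, and over the 15 samples Pearson's r of these deviations was 0.94 for EXO1, a value that 0.332% of the 12037 genes with a mean of at least 1 log2 RPKM reached. It was 0.81 for MSH3 (reached by 5.96% of these genes), 0.75 for MSH6 (9.80%), 0.14 for MLH3 (44.1%), 0.00 for PMS1 (50.8%) and -0.44 for PMS2 (73.4%). The 12037 genes include the 22 of the list, which make up the mean. The samples share lines, and these correlations are descriptions. The part of the replication genes in the lower EXO1 of Ov4Carbo7 was not tested.

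**Figure D3:**
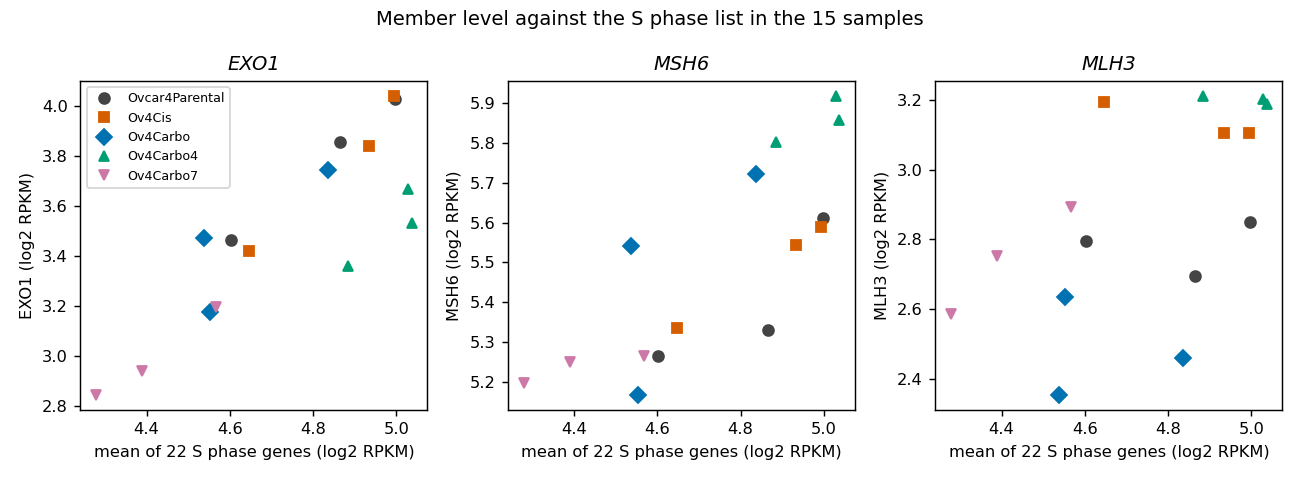
EXO1, MSH6 and MLH3 (log2 RPKM, vertical axes) against the mean of the 22 replication and cell cycle genes (log2 RPKM, horizontal axes), with 1 point per sample coloured by line. EXO1 rises along the axis in the points of most lines, with Ov4Carbo7 at the low end, while MLH3 separates by line.

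The later steps of the pathway were followed in 15 genes for the clamp, its loader, the single-strand binding protein, the polymerase and the ligase, and for HMGB1, a chromatin protein that can bind mismatched DNA. Against the parental line 1 was higher and 8 lower in Ov4Carbo7, 3 and 6 in Ov4Carbo4, 2 and 5 in Ov4Carbo and 2 and 4 in Ov4Cis, with median log2 differences of -0.39, -0.14, -0.04 and -0.16. Over all genes 22.2% were higher and 20.4% lower in Ov4Carbo7, 21.6% and 18.0% in Ov4Carbo4, 17.7% and 16.2% in Ov4Carbo and 19.8% and 16.4% in Ov4Cis, with medians of 0.02, 0.07, 0.03 and 0.04. HMGB1, named here outside the rule for list genes given below, was among the lower ones in Ov4Cis (-1.06) and Ov4Carbo7 (-0.95). RFC3, of the clamp loader (-0.80 and -0.88), and POLD1, of polymerase delta (-0.69 and -0.39), also outside that rule, were lower in the same lines. Other list genes were lower in only 1 of these lines. LIG1 was lower in Ov4Cis and at -0.12 in Ov4Carbo7. PCNA, RFC5 and POLD3 were lower in Ov4Carbo7 and at -0.17, 0.13 and -0.16 in Ov4Cis. RFC2, a clamp loader subunit, was at 0.05 in Ov4Cis and fell by 0.58 in Ov4Carbo, 0.95 in Ov4Carbo4 and 1.43 in Ov4Carbo7. POLD2, a subunit of polymerase delta, was at -0.18 in Ov4Cis and fell by 0.41, 0.64 and 0.60 in the same order. RPA2, of the single-strand binding protein, rose by 0.36, 0.29 and 0.67 in Ov4Cis, Ov4Carbo and Ov4Carbo4, and was at -0.10 in Ov4Carbo7. POLD4, the smallest polymerase delta subunit, rose in Ov4Cis (0.48) and Ov4Carbo7 (0.79), fell in Ov4Carbo4 (-0.86) and was at 0.20 in Ov4Carbo.

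Of 10 factors that act with or on mismatch repair, 1 was higher and 3 lower in Ov4Carbo7, 0 and 2 in Ov4Carbo4, 3 and 0 in Ov4Carbo and 3 and 2 in Ov4Cis, with median log2 differences of -0.11, -0.01, 0.13 and 0.11. The shares over all genes are those just given, and with 10 genes a count of 2 in 1 direction is close to each of them. SETD2, whose histone mark recruits MSH6 to chromatin, was lower in Ov4Cis (log2 difference -0.37), Ov4Carbo4 (-0.67) and Ov4Carbo7 (-0.21) and at -0.11 in Ov4Carbo. USP10, a deubiquitinase, was higher in Ov4Cis (0.29), Ov4Carbo (0.28) and Ov4Carbo7 (0.40) and at 0.14 in Ov4Carbo4. MUTYH, a glycosylase for oxidised mispairs, was higher in Ov4Cis (0.48) and Ov4Carbo (0.51), and MCM9, a helicase, was lower in Ov4Carbo4 (-0.69). Of the meiotic MutS genes MSH5 alone was measured, at a mean of -0.99 log2 RPKM in Ovcar4Parental, and it was higher in Ov4Carbo (1.38) and Ov4Carbo7 (1.25). Its level was low in every line, with geometric means of 0.505 to 1.32 RPKM. The Ov4Carbo samples were uneven, at -0.01, 1.13 and 0.08 log2 RPKM.

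**Figure D4:**
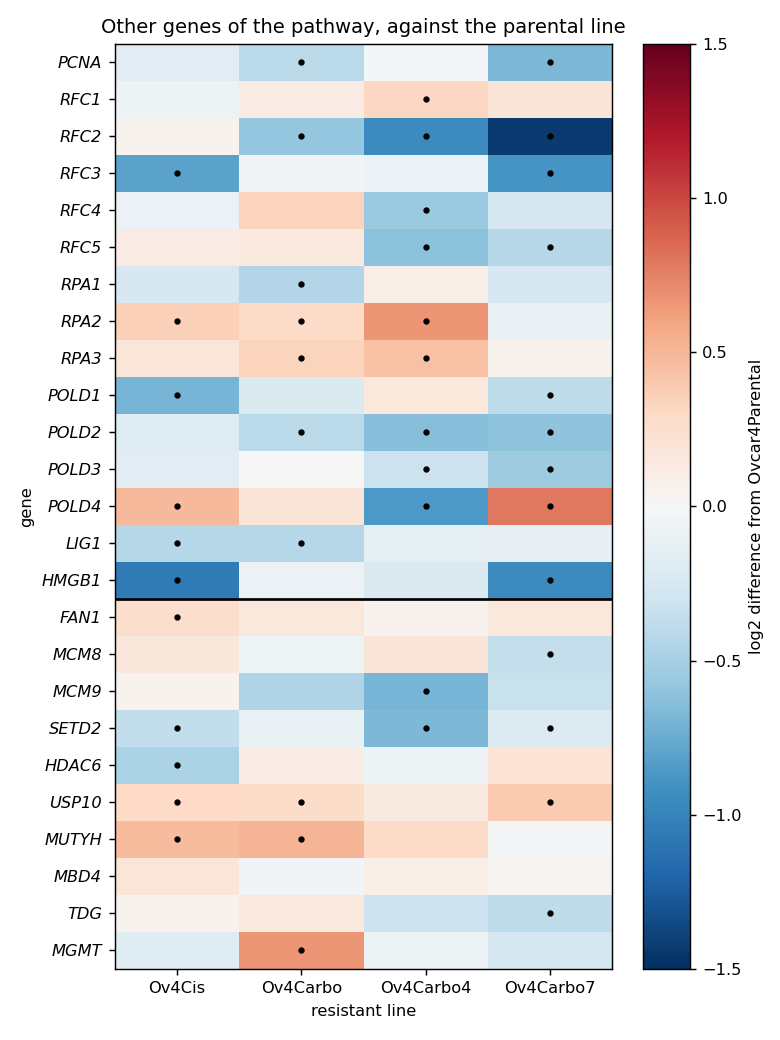
Log2 difference from Ovcar4Parental in the 4 resistant lines for the 15 later-step genes and the 10 other factors, as colour, with a dot where the adjusted p is under 0.05. In Ov4Carbo7 8 of the 15 later-step genes are lower and 1 is higher.

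Genes beside the members in the RefSeq table were followed in the same samples. EIF2B2, a translation factor gene next to MLH3, was higher in Ov4Cis and Ov4Carbo4 and lower in Ov4Carbo and Ov4Carbo7, with means of 4.77 log2 RPKM in Ovcar4Parental, 5.05 in Ov4Cis, 5.02 in Ov4Carbo4, 4.33 in Ov4Carbo and 4.13 in Ov4Carbo7. Its direction matched that of MLH3 in the 3 lines where MLH3 was called, and Pearson's r over 15 samples was 0.77. In Ov4Carbo7 they parted: EIF2B2 had its lowest mean there (limma adjusted p = 8.99e-05 against the parental line), while MLH3 was at -0.04 log2 (adjusted p = 0.792). AIMP2, next to PMS2, had r = 0.69, ORMDL1, next to PMS1, 0.41, ACYP1, on the other side of MLH3, 0.36, and FBXO11, which overlaps MSH6, -0.14. Strand use in counting was not given, so reads where FBXO11 and MSH6 overlap could be assigned to either. ORMDL1 was higher in Ov4Cis, Ov4Carbo and Ov4Carbo7, while PMS1 passed the test in Ov4Carbo and in no other line against the parental one.

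Among genes with a symbol and a mean of at least 1 log2 RPKM, those most like each member over the 15 samples were ranked by Pearson's r, for the 4 members that passed the F-test. For MLH3 MYPOP (0.94) and KMT2B (0.91) were among the most alike, and for PMS1 they were MRPS30 (0.93), ZNRF1 (0.88) and PARP8 (0.86). For EXO1 they were PUM3 (0.93), HNRNPAB (0.92) and SLC26A2 (0.92). For MSH6 CAPRIN1 (0.93), HACD3 (0.93) and GSTCD (0.93) were among the most alike.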

How the data were processed

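Expression was measured in 15 samples of 5 lines. Values were deposited by the authors as RPKM after conditional quantile normalisation (cqn) with a threshold whose rule is not given, as the deposited table's name says, and the values themselves show a log2-like scale, taken here as log2; per the submitters' processing notes BWA 0.7.15-r1140 and HTSeq were used, with hg19 (GRCh37). Their roles, the annotation, the handling of strand and the counts behind the values are not given in the sources used here, so depth and counting error are unknown. Symbols came from the gene name table, and promoters from RefSeq.

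From the deposited log2 values, limma 3.58.1 (R 4.3.3) was fitted with 1 coefficient per line on all 16604 genes and 15 samples, with no filter or covariate, and p-values were adjusted by Benjamini-Hochberg within each contrast. Calls were made at an adjusted p below 0.05. The code was tested on simulated data. The members and lists were chosen with earlier results of these data known. The members were all named, list genes by the number of contrasts with the parental line in which they were called (up to 4 a list), and similar genes as the 3 with the highest r. HMGB1, RFC3 and POLD1 were named outside the rule for list genes, after their values were seen. Some genes among the most alike, or beside a member, were left out after their values were seen and are not reported here. Alternatives were a replicate block, a title series term, only the lines compared, log2(RPKM + 1), a filter at a mean of 1, median centring, a variance trend, an adjusted p of 0.01, a log2 difference of 1 and leaving out each sample.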

Additional observations from a re-analysis of the deposited data

Results flagged for a closer look

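Some members differed between resistant lines by a direct limma test, so their change from the parental line was not the same in each. For MSH6 the change in Ov4Carbo4 exceeded that in Ov4Cis by 0.37 log2 and that in Ov4Carbo by 0.38, and the change in Ov4Carbo7 minus that in Ov4Carbo4 was -0.62. For MLH3 the change in Ov4Carbo minus that in Ov4Cis was -0.65, that in Ov4Carbo7 minus that in Ov4Cis was -0.39, that in Ov4Carbo4 minus that in Ov4Carbo was 0.72, and that in Ov4Carbo7 minus that in Ov4Carbo4 was -0.46. For PMS1 the change in Ov4Carbo minus that in Ov4Cis was 0.43, and that in Ov4Carbo4 minus that in Ov4Carbo was -0.32. For EXO1 the change in Ov4Carbo7 minus that in Ov4Cis was -0.77, and that minus the change in Ov4Carbo4 was -0.53. With the title series as a term, 4 of these were no longer called: MSH6 in Ov4Carbo4 against Ov4Cis (0.00, adjusted p = 0.995) and against Ov4Carbo (0.14, 0.598), MLH3 in Ov4Carbo7 against Ov4Cis (adjusted p = 0.173) and PMS1 in Ov4Carbo4 against Ov4Carbo (0.192). Both MSH6 differences were also lost in 11 of 15 fits that left out a sample. No formal outlier test was run on groups of 3 samples.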

How the results depend on the processing

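With a variance trend, log2(RPKM + 1), a filter at a mean of 1 or median centring, all 60 member comparisons kept their side of the threshold, and no called comparison changed sign under any alternative. The count of members differing among the 5 lines was 4, became 2 at an adjusted p of 0.01 and was 3 to 4 when 1 sample was left out; it has no value when only 2 lines are fitted. The 6 comparisons called against the parental line became 3 with the title series term, 2 at an adjusted p of 0.01, 0 with a log2 difference of 1, and 3 to 6 without 1 sample (3 without Ovcar4Parental replicate 2). The 11 called between resistant lines became 7, 7 and 0 under the same settings and 7 to 13 without 1 sample (7 without Ov4Carbo4 replicate 1). With the replicate number as a block the counts were 4, 5 and 10. Deviations from the line means correlated above 0.1 in 11 of 30 same-numbered pairs (range -0.39 to 0.44), and 4 of 15 samples correlated best with their own number. With 3 samples a line the deviations are tied to each other, so these values do not settle whether the numbers pair the samples. The series term also ended the calls of MSH6 in Ov4Carbo4 against Ov4Carbo (0.14 log2), MLH3 in Ov4Carbo7 against Ov4Cis (-0.35) and PMS1 in Ov4Carbo4 against Ov4Carbo (-0.22). Over all genes, fitting only the lines compared moved the calls from 5638 to 2344 in Ov4Carbo against the parental line, 5683 to 2931 in Ov4Carbo against Ov4Cis, 7015 to 4480 in Ov4Carbo4 against Ov4Carbo and 6083 to 3369 in Ov4Carbo7 against Ov4Carbo. The series term moved 7071 to 4181 in Ov4Carbo7 against the parental line, 6511 to 4204 against Ov4Cis, 7015 to 4580 in Ov4Carbo4 against Ov4Carbo and 6083 to 3024 in Ov4Carbo7 against Ov4Carbo. Other counts rose. The series term raised 5638 to 6713 in Ov4Carbo and 6012 to 6665 in Ov4Cis, both against the parental line. It also raised 5683 to 7057 in Ov4Carbo against Ov4Cis and 8484 to 9105 in Ov4Carbo7 against Ov4Carbo4. Fitting only the lines compared raised that 8484 to 9719, and 7308 to 8751 in Ov4Carbo4 against Ov4Cis. The cause of these shifts was not tested. Depth is unknown, so no counting error could be given.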
